A study of Homo sapiens with 2 samples.

Results

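The cytochrome P450 genes are the probe sets whose annotation names exactly 1 gene with a symbol made of CYP and a digit, 101 probe sets of 54 genes among the 19775 genes that have a probe set of their own. They were read on 2 expression arrays of PLC8024, a human hepatocellular carcinoma cell line, one from cells carrying lentiviral miR-130b and one from cells carrying an empty lentiviral vector. Both cultures were started from cells sorted as CD133-, so that the sort for lack of this surface marker and the lentiviral step are shared. However, one label names the miR-130b treatment a transfection. With 1 array per group there is no replicate error, no difference was tested, and whatever else separated the 2 cultures cannot be told apart from miR-130b. Values are the authors' log2 expression values from RMA, which corrects the background, gives the arrays 1 distribution and sums up the probes of a set, and every difference is miR-130b minus empty vector on that log2 scale.

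P450 enzymes are haem proteins that insert an oxygen atom into their substrate, using electrons from NADPH that reach microsomal members through the reductase POR and mitochondrial members through ferredoxin. In the liver, families CYP1 to CYP3 oxidise drugs, toxins and some lipids, family CYP4 hydroxylates the end of fatty acid chains, and a handful of other members turn cholesterol into bile acids or handle steroid hormones, vitamin D and retinoic acid. Hepatoma lines are known for low levels of many of these enzymes compared with hepatocytes.

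The introduced microRNA is shown with its seed, bases 2 to 8, in capitals, because it is the single designed difference between the cultures. Both arms of the precursor are given from RefSeq (GRCh38.p14, plus strand), the 3p arm at chr22:21653354-21653375 and the 5p arm at chr22:21653316-21653336, and the labels do not say which arm was meant.
hsa-miR-130b-3p: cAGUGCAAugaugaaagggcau
hsa-miR-130b-5p: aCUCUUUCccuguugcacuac
The level of the mature microRNA was not analysed here, and matches to the seed in P450 transcripts were not searched.

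Of the 54 P450 genes, 28 were measured, which means that at least 1 array stood at or above a floor of 4.88, the median of all non-control values. Where several probe sets of a gene did so, the one with the highest mean stands for the gene. Of the 28, 2 were lower with miR-130b by 1.5-fold or more, CYP26B1 and CYP27A1, and 0 were higher by that much. The share of members at least 1.5-fold lower was 7.14%, against 2.68% of all 13260 measured genes, and the share of all measured genes at least 1.5-fold higher was 0.294%. CYP26B1 was also past 2-fold, as were 1.52% of all measured genes in that direction. The members past these folds are few, 2 genes at 1.5-fold and 1 gene at 2-fold. The other 26 members differed by less than 1.5-fold, and 15 of the 28 lay within 0.20 on either side of 0, which is the pooled SD among probe sets within a gene, taken over 6047 genes. That SD is technical and holds no variation between cultures, and 72.0% of all measured genes lay within it. The median difference was 0.07 for the 28 members and 0.03 for all measured genes. Members with a positive difference numbered 17 of 28 (60.7%), against 56.1% of all measured genes.

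**Figure D1:**
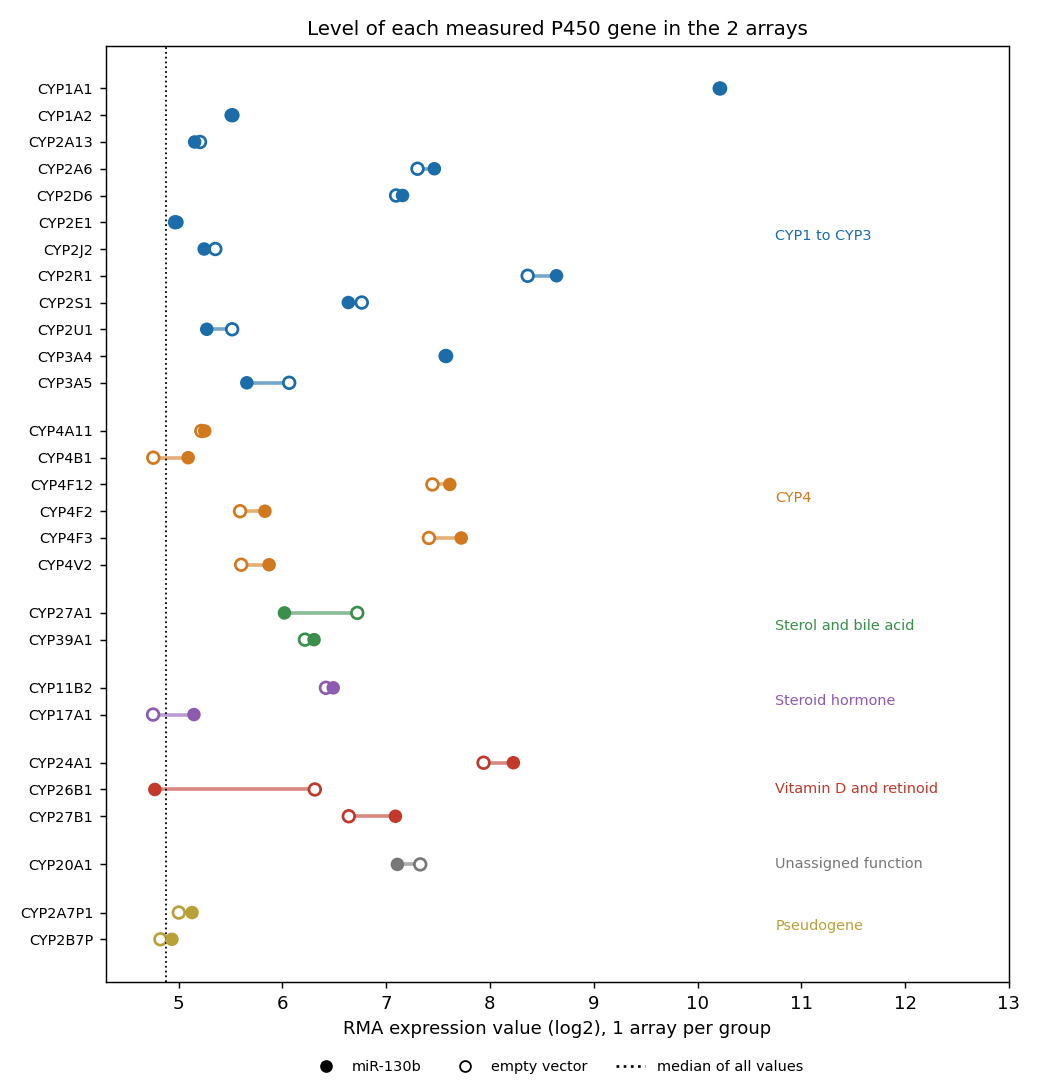
Levels of the 28 measured P450 genes, with the RMA expression value (log2) on the horizontal axis, filled points for the miR-130b array, open points for the empty vector array, and a dotted line at the floor of 4.88. The points of most genes lie close together, CYP26B1 and CYP27A1 are the pairs furthest apart, and horizontal positions of different genes cannot be compared because probe sets differ in brightness.

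The vitamin D and retinoid enzymes held the member with the largest difference. CYP26B1, which inactivates retinoic acid, stood at 4.77 with miR-130b and 6.31 with the empty vector, 2.91-fold lower with a difference of -1.54. Among all measured genes, 106 (0.80%) had a lower difference. The level in the miR-130b array lay below the floor, so the gene counts as measured through the empty vector array. A further CYP26B1 probe set, whose suffix marks possible cross-hybridisation, differed by -0.08. That probe set stood close to the floor in both arrays, at 4.92 with miR-130b and 4.997 with the empty vector. The decrease therefore rests on 1 probe set, and the mean over both was -0.81.

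Both vitamin D enzymes of that group had positive differences. CYP27B1, the mitochondrial enzyme that makes the active hormone, stood at 7.09 with miR-130b and 6.64 with the empty vector, a difference of 0.45 and the highest of the 28 members, although below 1.5-fold. Of all measured genes, 98.7% had a lower difference. CYP24A1, which inactivates the hormone and is a classical target of the vitamin D receptor, stood at 8.23 with miR-130b and 7.94 with the empty vector, a difference of 0.29. CYP2R1, the liver enzyme that performs the preceding hydroxylation, stood at 8.64 with miR-130b and 8.36 with the empty vector, a difference of 0.28. Its other measured probe set differed by 0.12 and a probe set under the floor by 0.37, and all 3 CYP2R1 probe sets were thus higher. The receptor gene VDR differed by 0.29, at 5.89 with miR-130b and 5.61 with the empty vector. These 4 genes were set side by side after their values were seen, none of them passed 1.5-fold, and each except CYP2R1 rests on 1 measured probe set. Other genes of vitamin D handling went the other way, with -0.70 for CYP27A1, which can hydroxylate vitamin D, and -0.30 for RXRA, the partner of VDR, or 0.02 in its other probe set. CYP27C1, which desaturates retinol in skin, was below the floor with the same value, 3.27, in both arrays.

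Among sterol and bile acid enzymes, CYP27A1 and CYP39A1 were measured, 2 of 6 genes. CYP27A1, the mitochondrial sterol hydroxylase that opens the alternative route of bile acid synthesis and can also hydroxylate vitamin D, stood at 6.02 with miR-130b and 6.72 with the empty vector. It was 1.63-fold lower, a difference of -0.70 from the single probe set of the gene, and 2.22% of all measured genes had a lower difference. Both arrays lay above the floor. CYP39A1, an oxysterol hydroxylase, stood at 6.31 with miR-130b and 6.22 with the empty vector, a difference of 0.09. A dimmer CYP39A1 probe set differed by -0.30 and passed the floor in the empty vector array only. Another, below the floor, differed by 0.03. The sign of CYP39A1 thus depended on the probe set. CYP7A1, the rate-limiting enzyme of the classical route, and CYP8B1, which sets the balance between cholic and chenodeoxycholic acid, lay below the floor in both arrays. So did CYP7B1, an oxysterol hydroxylase, and CYP46A1, the cholesterol hydroxylase known from brain. The 5 probe sets of these 4 genes ranged from 3.09 to 4.45 in level and from -0.22 to 0.11 in difference, with CYP8B1 at -0.22, and no change can be read from them.

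The 6 measured CYP4 genes all had positive differences, as had 56.1% of all measured genes, with a median of 0.25 and none at 1.5-fold. CYP4F3, which hydroxylates leukotriene B4, stood at 7.72 with miR-130b and 7.41 with the empty vector, a difference of 0.31. CYP4F2, which also acts on vitamins E and K, stood at 5.83 with miR-130b and 5.59 with the empty vector, a difference of 0.24. CYP4F12, an arachidonic acid hydroxylase, stood at 7.61 with miR-130b and 7.45 with the empty vector, a difference of 0.17, inside the SD between probe sets. In the RefSeq gene table the CYP4F genes of this set lie on 1 chromosome in the order CYP4F22, CYP4F8, CYP4F3, CYP4F12, CYP4F2 and CYP4F11. CYP4F2 and CYP4F3 are close paralogs whose probes can share signal, and the CYP4F2 and CYP4F12 probe sets carry cross-hybridisation suffixes. The outer members of that cluster, CYP4F22 and CYP4F11, and CYP4F8 lay below the floor.

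CYP4V2, a fatty acid hydroxylase whose loss causes a crystalline retinal dystrophy, stood at 5.87 with miR-130b and 5.60 with the empty vector, a difference of 0.27. Its 3 other probe sets lay below the floor and differed by 0.32, 0.06 and -0.05. CYP4B1 stood at 5.09 with miR-130b and 4.76 with the empty vector, a difference of 0.34, and was measured through the miR-130b array only. CYP4A11, which hydroxylates medium-chain fatty acids under the control of PPARA, stood at 5.25 with miR-130b and 5.22 with the empty vector, a difference of 0.03. That uniform sign holds for the genes that passed the floor. Over all 11 CYP4 genes without a floor, 7 were higher and 4 lower, with a median of 0.17. Over all genes without a floor, 54.2% were higher and the median was 0.03.

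**Figure D2:**
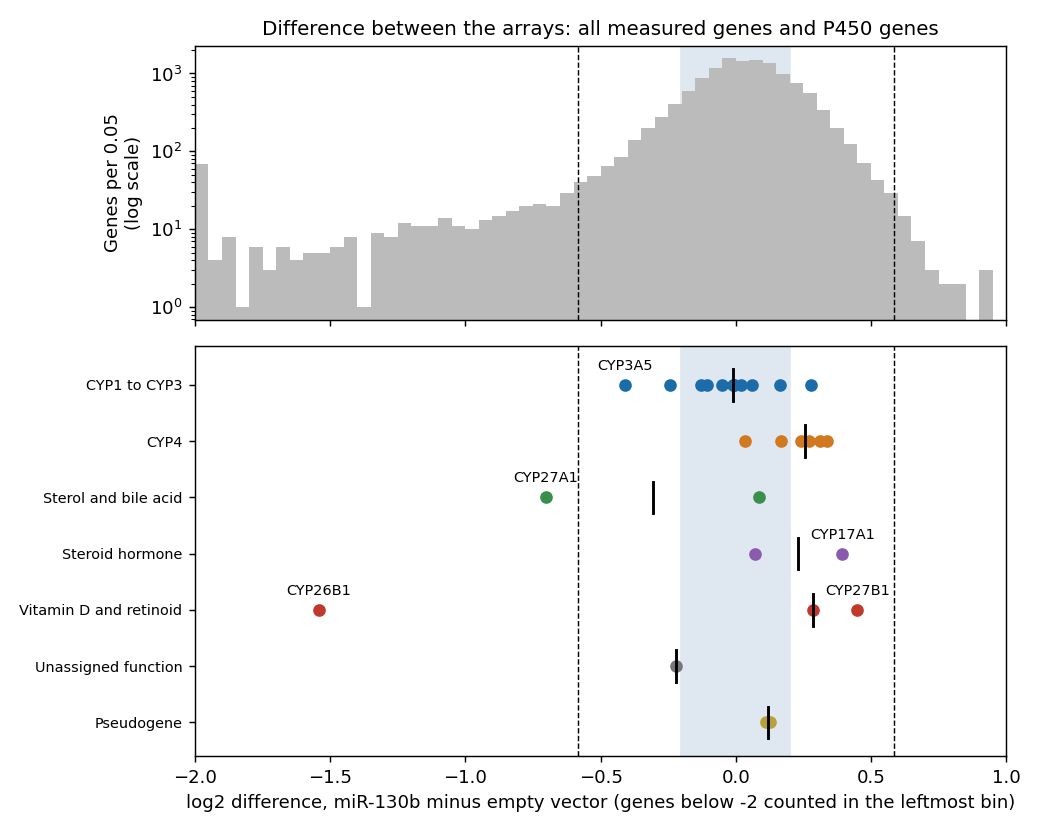
Top: number of measured genes per bin of difference (log2, miR-130b minus empty vector), on a log scale. Bottom: the same difference for each measured P450 gene by group, with a black bar at the group median, dashed lines at 1.5-fold and a shaded band of 0.20 on each side of 0 for the SD between probe sets. CYP1 to CYP3 genes centre on 0, the 6 CYP4 genes all lie to the right of it, and CYP26B1 and CYP27A1 lie beyond the left dashed line.

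Of 19 genes in the drug-metabolising families CYP1 to CYP3, 12 were measured, with a median difference of -0.01. Of the 12, 4 were higher (33.3%) and 8 lower, where 56.1% of all measured genes were higher. None of the 12 passed 1.5-fold and 9 lay within 0.20. Among all 13260 measured genes, 12865 were within 1.5-fold and 72.0% within 0.20. The counts by size are thus near those of genes in general. The CYP4 median of 0.25 and this median of -0.01 have no replicates behind them, and the contrast between the families was not tested. The sterol and bile acid median was -0.31, but it stands for 2 genes of opposite sign.

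CYP1A1, which oxidises polycyclic aromatic hydrocarbons and is the best known target of the aryl hydrocarbon receptor AHR, stood at 10.21 with miR-130b and 10.22 with the empty vector, a difference of -0.01. CYP1A2, which metabolises caffeine, stood at 5.51 with miR-130b and 5.52 with the empty vector, a difference of -0.01, with -0.27 in its other probe set. CYP1B1, which hydroxylates oestrogens, had 4 probe sets, all below the floor, with differences from -0.42 to 0.40. The probe sets of CYP1B1 thus disagreed in sign, and no change can be read from them.

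In the CYP2 family, CYP2A6, the nicotine and coumarin hydroxylase, stood at 7.46 with miR-130b and 7.30 with the empty vector, a difference of 0.16. Its other 3 probe sets differed by 0.11, 0.09 and -0.12. CYP2D6, which activates codeine, stood at 7.16 with miR-130b and 7.10 with the empty vector, a difference of 0.06. CYP2S1, an AHR-inducible member, stood at 6.64 with miR-130b and 6.76 with the empty vector, a difference of -0.13. The fatty acid hydroxylase CYP2U1 stood at 5.27 with miR-130b and 5.52 with the empty vector, a difference of -0.24. Its 3 further probe sets, below the floor, differed by 0.20, 0.20 and 0.05, opposite in sign.

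CYP2J2, an arachidonic acid epoxygenase, stood at 5.25 with miR-130b and 5.35 with the empty vector, a difference of -0.11. CYP2A13, a relative of CYP2A6 known from the airways, stood at 5.15 with miR-130b and 5.21 with the empty vector, a difference of -0.05. CYP2E1, the ethanol-oxidising member, stood at 4.98 with miR-130b and 4.97 with the empty vector, a difference of 0.02 close to the floor. CYP2B6, CYP2C8, CYP2F1, CYP2W1 and CYP2A7 lay below the floor in both arrays, and so did CYP3A43. CYP2B6 and CYP2C8 are major drug-metabolising enzymes of adult liver.

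CYP3A4, which oxidises more drugs than any other P450 enzyme, stood at 7.57 with miR-130b and 7.58 with the empty vector, a difference of -0.01. The CYP3A4 probe set used carries a cross-hybridisation suffix. A dimmer CYP3A4 probe set without one differed by 0.13 and passed the floor in the miR-130b array only. CYP3A5, which shares most of its substrates, had the lowest difference of the 12 measured genes, -0.41, at 5.66 with miR-130b and 6.07 with the empty vector. That probe set carries a cross-hybridisation suffix, and the CYP3A5 probe set without one that was measured differed by -0.01, so the size of the difference rests on 1 probe set.

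**Figure D3:**
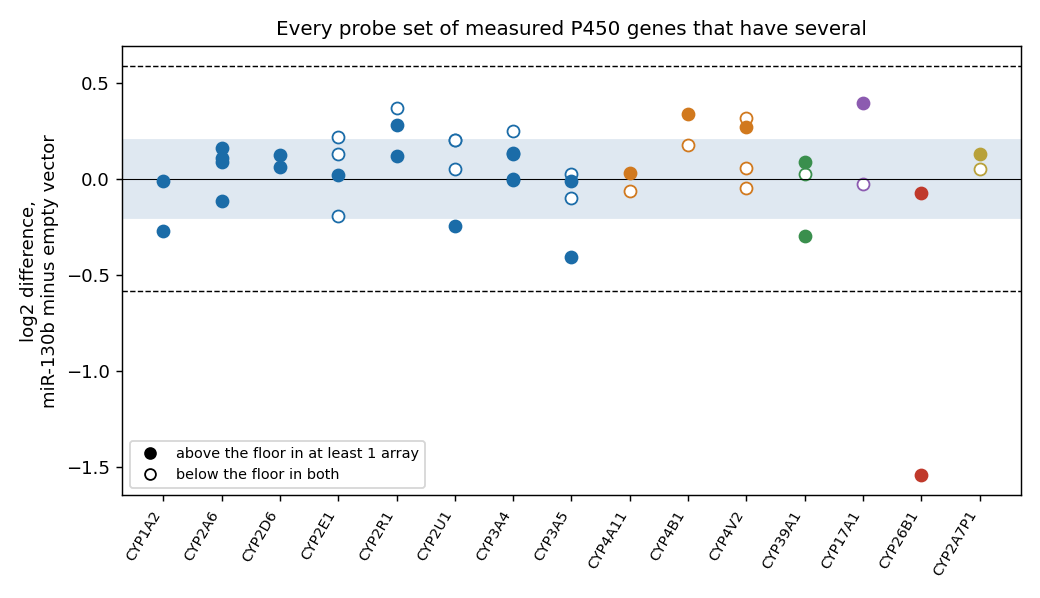
Log2 difference, miR-130b minus empty vector, of every probe set of the measured P450 genes that have more than 1, filled where at least 1 array reached the floor and open where neither did, with dashed lines at 1.5-fold and a band of 0.20 for the SD between probe sets. The 2 CYP26B1 probe sets lie at -1.54 and -0.08, further apart than those of any other gene shown.

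Probe sets of the same gene gave a technical check of these values. Of the 28 measured genes, 20 had 1 measured probe set and 8 had more. Over those 8 genes the differences of a gene's probe sets had a pooled SD of 0.36, and of 0.17 over 7 genes without CYP26B1. Probe sets with a suffix for possible cross-hybridisation (x, s or f) represented 8 of the 28 genes. These were CYP1A2, CYP2A6, CYP3A4, CYP3A5, CYP4A11, CYP4F2, CYP4F12 and CYP2A7P1.

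Among steroid hormone enzymes, 2 of 5 were measured. CYP11B2, the aldosterone synthase of the adrenal cortex, stood at 6.49 with miR-130b and 6.42 with the empty vector, a difference of 0.07. CYP17A1, which makes androgen precursors, stood at 5.15 with miR-130b and 4.75 with the empty vector, a difference of 0.39, and passed the floor in the miR-130b array only. A further CYP17A1 probe set below the floor differed by -0.03. The 4 steroidogenic cell markers STAR, HSD3B1, HSD3B2 and NR5A1 lay between 3.78 and 4.26 with miR-130b and between 3.91 and 4.32 with the empty vector, all below the floor. The table has no detection call, and a value above the median of the arrays does not show that a transcript was present. CYP11A1, which makes pregnenolone from cholesterol, CYP11B1 and the aromatase CYP19A1 lay below the floor, CYP19A1 in each of 7 probe sets.

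CYP20A1, a member without an assigned substrate, stood at 7.11 with miR-130b and 7.33 with the empty vector, a difference of -0.22. The pseudogenes CYP2A7P1 and CYP2B7P were measured with differences of 0.13 and 0.11, close to the floor. CYP2B7P passed it in the miR-130b array only. Probe sets of such near copies can carry signal of the intact genes. The other 4 pseudogene or read-through members and both antisense transcripts, CYP1B1-AS1 and CYP51A1-AS1, lay below the floor. In all, 26 members with 43 probe sets were below it in both arrays, with levels from 3.09 to 4.80 and differences from -0.42 to 0.40. By the probe set with the highest mean, the differences furthest from 0 among them were 0.40 for CYP1B1, 0.24 for CYP4F11 and -0.22 for CYP11A1. None reached 1.5-fold, and 3 of all 101 probe sets had exactly the same value in both arrays.

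To show the start sites of the 2 members past 1.5-fold beside one that was level, RefSeq promoter windows of CYP26B1, CYP27A1 and CYP1A1 are given, 250 bases before to 50 after the annotated start (GRCh38.p14, 5' to 3' on the strand of the gene). They lie at chr2:72147813-72148112 on the minus strand for CYP26B1, chr2:218781897-218782196 on the plus strand for CYP27A1 and chr15:74725479-74725778 on the minus strand for CYP1A1. Capitals mark 4 motifs searched on both strands, the core of the AHR element (GCGTG), the half-site of nuclear receptors (AGGTCA), the TATA box (TATAAA) and the CCAAT box (CCAAT), and no marked stretches overlap.
CYP26B1: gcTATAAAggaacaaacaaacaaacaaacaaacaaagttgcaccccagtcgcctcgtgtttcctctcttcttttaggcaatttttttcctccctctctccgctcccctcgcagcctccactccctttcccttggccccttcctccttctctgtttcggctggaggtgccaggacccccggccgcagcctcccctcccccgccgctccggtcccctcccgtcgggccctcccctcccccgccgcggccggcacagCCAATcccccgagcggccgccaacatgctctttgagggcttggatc
CYP27A1: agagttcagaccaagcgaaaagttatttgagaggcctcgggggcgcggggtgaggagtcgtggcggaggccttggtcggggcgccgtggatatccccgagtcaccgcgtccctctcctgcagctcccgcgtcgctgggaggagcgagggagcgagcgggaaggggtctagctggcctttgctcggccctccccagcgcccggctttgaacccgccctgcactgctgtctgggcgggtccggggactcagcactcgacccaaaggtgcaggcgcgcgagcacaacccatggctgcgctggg
CYP1A1: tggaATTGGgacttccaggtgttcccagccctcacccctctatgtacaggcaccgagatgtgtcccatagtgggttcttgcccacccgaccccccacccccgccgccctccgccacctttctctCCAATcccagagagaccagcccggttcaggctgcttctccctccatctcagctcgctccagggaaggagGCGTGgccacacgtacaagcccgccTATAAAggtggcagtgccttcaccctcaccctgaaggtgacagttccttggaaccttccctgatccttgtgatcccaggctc
The CYP1A1 window holds GCGTG from base 194 and TATAAA from base 219, just upstream of the start, with CCAAT from base 125 and its reverse complement from base 5. In the CYP26B1 window TATAAA begins at base 3, 248 bases before the start, and CCAAT begins at base 255, after the start. The CYP27A1 window holds none of the 4 motifs. The AHR core occurred in 13 of 48 windows of 36 P450 members (27.1%) and in 36.5% of all 35116 promoter windows in the table. The nuclear receptor half-site was found in 27.1% of member windows and 13.8% of all windows, the TATA box in 33.3% of member windows and 11.5% of all windows, and the CCAAT box in 45.8% of member windows and 34.6% of all windows. Several members have more than 1 window, and a match is a run of letters, not a bound site.

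Lists of genes that work with or regulate the P450 enzymes had no measured member past 1.5-fold, as holds for 12865 of all 13260 measured genes, so the counts below do not set these lists apart. Of 9 listed electron donors, 7 were measured, with a median of -0.06. The microsomal reductase POR stood at 8.32 with miR-130b and 8.396 with the empty vector, a difference of -0.07. The cytochrome b5 reductase CYB5R3 differed by -0.28, with -0.30 in its other probe set, and PGRMC2, a haem-binding membrane protein, by 0.28, with -0.04 in its other probe set. CYB5B, the outer mitochondrial cytochrome b5, differed by -0.25, but its 4 probe sets ranged from -0.25 to 0.26. The ferredoxin FDX1, which feeds CYP27A1, CYP27B1 and CYP24A1, stood at 10.59 with miR-130b and 10.39 with the empty vector, a difference of 0.20, and all 3 of its probe sets were higher.

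Of 12 haem genes, 11 were measured, 8 with a positive difference, against 56.1% of all measured genes, and none passed 1.5-fold. That count depended on the probe set. With the mean of measured probe sets, ALAD and UROD turned negative (-0.07 and -0.10) and HMOX2 turned positive (0.07). PPOX, a late enzyme of haem synthesis, differed by 0.27, the haem oxygenase HMOX1 by 0.26, CPOX by 0.15 and the biliverdin reductase BLVRA by 0.11, or -0.14 in its lowest probe set. ALAS1, the rate-limiting enzyme of haem synthesis in liver, differed by -0.08.

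None of 12 measured xenobiotic and lipid sensing regulators passed 1.5-fold, and their median was 0.03. RXRA, the shared partner of several nuclear receptors, differed by -0.30, with 0.02 in its other probe set. PPARA, which drives CYP4A genes, stood at 8.32 with miR-130b and 8.02 with the empty vector, a difference of 0.30, while its 6 probe sets ranged from -0.13 to 0.38. NR0B2, a repressor of bile acid synthesis, differed by -0.28 from 1 probe set. AHR differed by 0.15, and its partner ARNT by 0.03. The other AHR target genes measured, NQO1, TIPARP and SLC7A5, differed by 0.00, 0.04 and -0.05, and CYP1A1 by -0.01. Of the drug sensors, NR1I3 lay below the floor and NR1I2 was not analysed here.

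Of 16 liver regulators, 13 were measured, none past 1.5-fold, with a median of -0.06. NR5A2, an activator of bile acid synthesis genes, had the difference furthest from 0, -0.49, at 6.76 with miR-130b and 7.25 with the empty vector. All 3 of its measured probe sets were lower, with differences of -0.49, -0.33 and -0.31. The forkhead factor gene FOXA3 differed by -0.33, and the circadian factor gene DBP and the hepatic factor gene ONECUT1 by 0.27 and 0.26. TBXAS1 and PTGIS, P450 enzymes that carry no CYP name, lay below the floor.

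**Figure D4:**
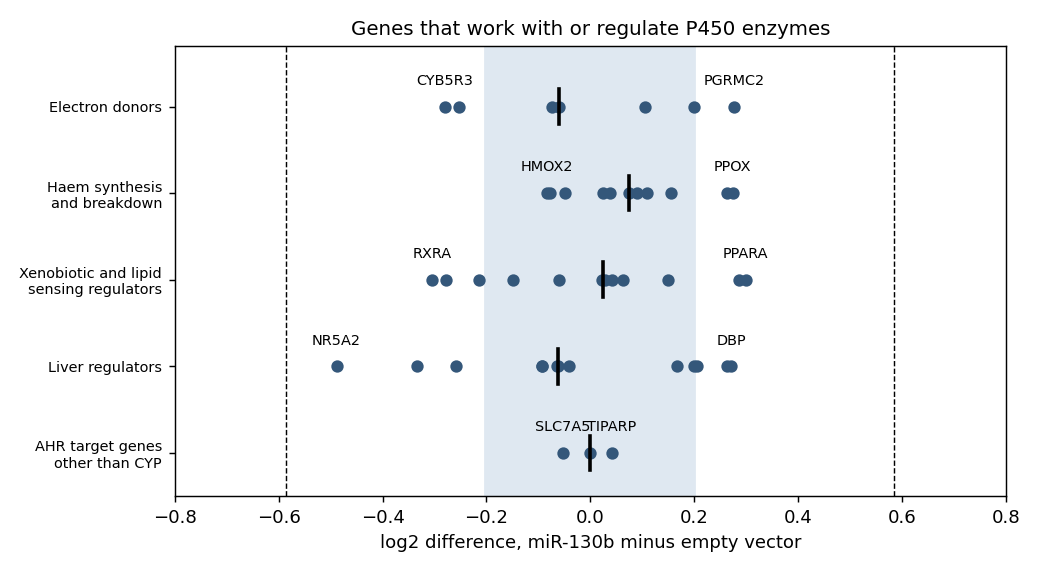
Log2 difference, miR-130b minus empty vector, of each measured gene of 5 lists of P450 partners and regulators, with the list median as a black bar, dashed lines at 1.5-fold and a band of 0.20 for the SD between probe sets. Every gene lies between the dashed lines, and NR5A2 at -0.49 is the furthest from 0.

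The labelled cell type and the RNA were checked on the same arrays. All 8 hepatocyte markers were measured. Past 1.5-fold in the lower direction with miR-130b were 2 of them, ALB at -1.03 (-1.56 and -2.38 in its other probe sets) and TTR at -3.34. The other 6 stayed within 1.5-fold in their brightest probe sets. SERPINA1 differed by 0.08, APOB by 0.04, TF by 0.03, FGB by 0.01 and AHSG by -0.14. APOA1 differed by -0.51, with -0.41 and 0.11 in its other probe sets. Of the 8 markers, 4 were higher and 4 lower, and the median of the hepatocyte list was -0.07. Among all 13260 measured genes, 2.68% were at least 1.5-fold lower. KRT19 of 3 biliary markers and COL1A2 of 4 measured stromal and endothelial markers were lower as well, with differences of -3.03 and -3.08. The other biliary markers stayed within 1.5-fold, SOX9 at -0.30 and KRT7 at 0.18. Of the stromal and endothelial markers, PDGFRB differed by -0.08 and PECAM1 by 0.21 in its brightest probe set. COL1A1 differed by -0.08 in its brightest probe set, but its 4 probe sets ranged from -1.68 to 0.38. Of the leukocyte markers, LYZ was the only one measured, with differences of -0.32 and, in a dimmer probe set, -1.72, while PTPRC, CD14 and CD3E lay below the floor. For ACTB the 3' signal over the 5' signal was 2.41 with miR-130b and 1.95 with the empty vector, and for GAPDH it was 1.52 with miR-130b and 1.37 with the empty vector. The part of these differences in the lower CYP26B1 and CYP27A1 values was not tested. In such bulk RNA, fewer cells with a transcript and less of it per cell cannot be told apart.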

How the data were processed

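The authors deposited log2 expression values, 1 for each probe set on each array. The submitters' processing notes name RMA, with no version. Its settings are not given in the labels. Its residual background compresses the differences of dim probe sets, and precision is limited by 1 array per group. Groups came from the sample titles. Gene names came from the platform annotation at GEO, which gives 1 symbol to 41091, several to 1801 and none to 11721 of 54613 probe sets other than controls. Those with several were used for no gene. All 54 member symbols were found in the RefSeq gene table (GRCh38.p14). In the electron donor list FDX1L, an older symbol of FDX2, was counted as the same gene. Of the CYP26 family, 1 member is not reported here.

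A gene was measured when its brighter array reached 4.88, the median of non-control values, and took the values of the measured probe set whose mean was highest. Genes were counted beyond 1.5-fold (0.58 on the log2 scale) and 2-fold as rules of size, with no test. The computation was run on simulated data with large planted differences, which checks the code and not the precision of these arrays. Every measured member is named, as are up to 4 members of each list and, below the floor, the 3 with the largest differences. Members, lists and rules were chosen with earlier results of these data known, and other names and the promoters shown were chosen after values were seen. Alternatives tried were removal of the floor, a floor of 6.98 (75th percentile) or one on the mean of both arrays, the mean of measured probe sets, leaving out _x_at and _s_at probe sets, loess centring (span 0.3) and median centring. Python 3.11.15, numpy 2.4.6, pandas 2.3.3, statsmodels 0.14.6 and matplotlib 3.10.9 were used.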

Additional observations from a re-analysis of the deposited data

How the results depend on the processing

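With the floor at the 75th percentile, 10 members were left and the number at least 1.5-fold lower was 0, because CYP26B1 and CYP27A1 lie under that floor, and no sterol or bile acid enzyme remained. Under the 6 other alternatives the number was 2, and under all 7 the number at least 1.5-fold higher was 0. The median over members ranged from 0.03 to 0.16, that of CYP1 to CYP3 from -0.04 to 0.06, that of CYP4 from 0.17 to 0.31 and that of sterol and bile acid enzymes from -0.40 to -0.11, all on the log2 scale and including the values reported above. The 6 measured CYP4 genes were all higher under loess centring, with 51.6% of all genes, and under median centring, with 50% of them. CYP4A11 then differed by only 0.02 and 0.002. Without _x_at and _s_at probe sets 3 CYP4 genes were left, all higher, against 57.4% of all genes. With the 75th percentile floor 2 were left, both higher, against 58.5% of all genes. Among single genes, CYP26B1 moved to -0.81 with the mean of its probe sets, and CYP2A6 to -0.12 and CYP3A5 to -0.01 without _x_at and _s_at probe sets. The CYP2A6 probe set left in that setting has an f suffix, which also marks possible cross-hybridisation. The other 211 values of single genes and lists moved by less than 0.20. No paired analysis was possible because each group holds 1 array. The absence of replicates and of a detection call limits every value, most of all for members near the floor.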

Other observations

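P450 probe sets that the annotation gives to several genes belong to no comparison above. There were 11 of them, 8 above the floor, with differences from -0.28 to 0.27 and 0 past 1.5-fold in either direction. CYP51A1, the sterol demethylase of cholesterol synthesis, shares both of its probe sets with LRRD1 in the annotation. One stood at 9.93 in both arrays with a difference of 0.00, and the other at 9.72 with miR-130b and 9.84 with the empty vector, a difference of -0.12. A probe set given to CYP4F2 and CYP4F3 stood at 5.28 with miR-130b and 5.01 with the empty vector, a difference of 0.27, beside 0.24 and 0.31 in the probe sets of CYP4F2 and CYP4F3 alone. A probe set given to CYP4A22 and CYP4A11 differed by -0.10, opposite in sign to the 0.03 of the CYP4A11 probe set. The probe set given to CYP21A2 and its pseudogene had the lowest difference of the 11, -0.28, at 5.09 with miR-130b and 5.37 with the empty vector.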
